A study of Sus scrofa with 32 samples.

Results

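Fetal pig liver late in gestation, at 91 days post coitum (dpc), was compared with fetal liver early in gestation, at 35 dpc. All arrays of both stages were used, 10 at each, which is 20 of the 32 arrays of the study, and the arrays of 63 dpc were left out. The fetuses were of the Pietrain breed, and their mothers ate during gestation either the control diet or one with added methylating micronutrients, which supply methyl groups. Each stage had 5 arrays of the control diet and 5 of the methyl diet, and diet was a term in every fit of the stage. RNA of each liver was hybridised to an Affymetrix porcine expression array, which reads a transcript through a group of short probes called a probe set. The labels name no dam, litter, fetal sex or array batch, so p-values measure the spread between these samples only, and fetuses sharing a dam would make them too small.

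In mammals the early fetal liver is the main site of red blood cell formation, and its hepatoblasts divide while they begin to make plasma proteins. As birth nears, blood formation moves to the bone marrow, the hepatoblasts mature into hepatocytes and bile duct cells, and the hepatocytes take on bile formation, glycogen storage and the handling of nitrogen and foreign compounds. Proteins of the fetal period such as alpha-fetoprotein and embryonic globins are known to give way to later forms in this organ.

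Values are log2 signals as deposited, so a difference of 1 is a doubling, and differences are given as 91 minus 35 dpc. Hepatocyte markers were bright at both stages: the mean levels of SERPINA1, which encodes alpha-1-antitrypsin, went from 16.32 to 16.14 and those of TF, transferrin, from 15.81 to 15.57, so defining genes of the labelled tissue were present at both stages. The median correlation of an array with the other 9 of its stage was 0.967 to 0.982, and with the 10 of the other stage 0.776 to 0.873. The first principal component held 78.6% of the variance and ran from -115 to -56.6 at 35 dpc and from 66.4 to 109 at 91 dpc. The array medians were 3.83 to 3.97 at 35 dpc and 4.01 to 4.22 at 91 dpc, which do not overlap, and no source used here says how the arrays were brought to a common scale. Quantile normalization of the 20 arrays, as an alternative, moved the median difference over all probe sets by -0.17. The bacterial spike-in controls, bioC and bioB, lay far apart on 12 arrays (by 1.39 to 1.83) and close together on 8 (0.16 to 0.39), with 3 and 2 of these in each group of stage and diet. The small-gap arrays were replicates 2 and 4 of every group. The second component, 4.80% of the variance, followed that gap. The mean 3' to 5' signal difference of the control transcripts was 1.69 ± 0.26 (SD, n = 10) at 35 dpc and 1.84 ± 0.42 (n = 10) at 91 dpc, so the stages overlapped in this sign of RNA quality. By spike-in gap it was 1.24 to 1.77 on the small-gap arrays and 1.58 to 2.63 on the others, so it moved in part with the gap. The same value to 3 decimals recurred on at least 3 of the 20 arrays in 5028 probe sets, at levels up to 14.21, and no source used here says how such values arose, so arrays that share one have no order. Among the genes named below this held for 4 or more arrays of a stage in CPT1A, CYP2C42, CYP2C49, CYP2C91, KIT, MTR, MX1, NFIA, NR1I2, NR3C1, OAS1, RRM2B, SLA-DQB1 and SULT2A1 at 35 dpc, in CITED1, MARCO and VSIG2 at 91 dpc, and in GP2, IGF1 and IGFBP5 at both stages.

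limma called 11864 of 14948 probe sets tested, or 79.4%, at a Benjamini-Hochberg adjusted p under 0.05. Of these, 6103 (40.8% of those tested) were higher at 91 dpc and 5761 (38.5%) lower. The stages did not overlap in any array for 6134 probe sets (41.0%). Large differences were mostly rises: 1743 probe sets rose by more than 2 on the log2 scale and 654 fell by more than 2. Of the probe sets with a single gene symbol 32.9% were called higher and 47.3% lower, against 48.8% and 29.7% of those with no symbol or several. The named genes are therefore not a picture of the whole array. Each of the 5539 named genes was then represented by its brightest probe set. By that measure 1837 genes (33.2%) were called higher and 2725 (49.2%) lower, with a median difference of -0.25 over all genes, and the gene groups below are set beside these shares. Some 96 of 1484 genes with several probe sets had probe sets called in opposite directions. In whole tissue, fewer cells of a type and less RNA per cell cannot be told apart, and this holds for every group that follows.

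The largest rises among the named genes included those for a membrane protein known from neurons, a plasma protease and a bile salt pump. LRRN3, a leucine-rich repeat protein, had lowest, median and highest levels of 3.87, 4.60 and 6.65 in the early arrays against 11.21, 11.58 and 12.05 in the late arrays. It rose by 6.72 ± 0.30 (SE), or 106-fold (limma adjusted p = 4.04e-14). All 10 arrays of 91 dpc lay far above all of 35 dpc. KLKB1, the precursor of plasma kallikrein, stood at 3.88, 5.08 and 7.01 in the early arrays against 10.63, 11.02 and 11.29 in the late arrays, again without overlap, and rose by 5.89 ± 0.29. ABCB11, the pump that exports bile salts from the hepatocyte into the canaliculus, rose by 5.29 ± 0.23 from levels of 2.94 to 4.96 to levels of 8.74 to 10.11. DPP4, a peptidase of the canalicular membrane, rose by 4.93 ± 0.29, and PDZK1, a scaffold that holds the HDL receptor SCARB1 at the hepatocyte surface, by 4.54 ± 0.32. CCPG1, a receptor for the turnover of endoplasmic reticulum, rose by 4.90, and the zinc finger gene ZNF277 by 4.88. VSNL1, a calcium sensor protein, rose by 4.63 ± 0.26.

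Some rises started from background. Near background means at or below the 40th percentile of that array, which was 2.78 to 2.93, and a fold of at least N sets such arrays at that percentile. Folds of this kind are given for genes near background on 5 or more arrays of a stage. They are also given for HPD and EPO, which were near background on fewer arrays. KLF9, a transcription factor induced by glucocorticoid and thyroid hormones, was near background on 10 of 10 arrays at 35 dpc and reached 6.04 to 7.78 at 91 dpc, at least 19.5-fold higher (log2 difference 4.75 ± 0.17, limma adjusted p = 3.26e-15). GSTA1, a glutathione transferase of the mature liver, was near background on 5 of 10 arrays at 35 dpc. Its lowest, median and highest levels were 2.33, 2.83 and 3.51 in the early arrays against 4.90, 9.68 and 10.96 in the late arrays, at least 63.1-fold higher on average, with a wide spread among the late fetuses. CLEC2D, a ligand of an inhibitory natural killer cell receptor, was near background on 2 arrays at 35 dpc and rose by 4.71 ± 0.19. Of the 5539 genes, 36 that were near background on every array of 35 dpc were called higher at 91 dpc. Another 61 that were near background on every array of 91 dpc were called lower. Only probe sets above that percentile on at least 5 arrays were tested. Such genes therefore passed the filter through the other stage alone, which fixed their direction beforehand. This holds for KLF9 too, and for CYP2C91, SULT2A1 and NR1I2 below.

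The largest fall among the named genes was that of HPD, which encodes the dioxygenase that breaks down hydroxyphenylpyruvate in the tyrosine pathway. Its lowest, median and highest levels were 9.98, 11.33 and 12.02 in the early arrays against 2.70, 3.27 and 3.92 in the late arrays, a fall by 7.89 ± 0.20 (limma adjusted p = 1.68e-17). Among the late arrays 1 was near background, so the fold is at least 236. AQP3, a channel for water and glycerol, fell by 6.01 ± 0.15 and was near background on 2 of 10 late arrays. HBE1, embryonic epsilon globin, had levels of 8.63, 9.19 and 10.29 in the early arrays against 3.07, 3.40 and 4.85 in the late arrays, with no overlap. GPX3, the glutathione peroxidase secreted to plasma, fell by 5.55 ± 0.25, and CITED1, a transcriptional co-regulator of embryonic tissues, by 5.55 ± 0.18. SLC2A1, the glucose transporter of red cells and of many growing tissues, fell by 4.99 ± 0.24 from 11.66 to 12.94 down to 6.02 to 8.48. FABP3, the fatty acid binding protein best known from heart muscle, fell by 4.90, and SELENOM, a selenoprotein of the endoplasmic reticulum, by 4.33.

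Several further falls ended at background. TRH, which encodes thyrotropin-releasing hormone, was near background on 9 of 10 late arrays after early levels of 5.93 to 9.03, at least 16.4-fold lower. NANOS1, an RNA-binding regulator of translation, was near background on 7 late arrays and fell at least 17.7-fold, and FGF12, an intracellular relative of the fibroblast growth factors, was so on 6 and fell at least 15.0-fold. PLA2G1B, the phospholipase of pancreatic juice, fell by 4.68 ± 0.38 with late levels that ran from 3.29 to 7.17. It belongs to the markers of neighbouring tissues described further on, whose part in its fall was not tested.

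**Figure D1:**
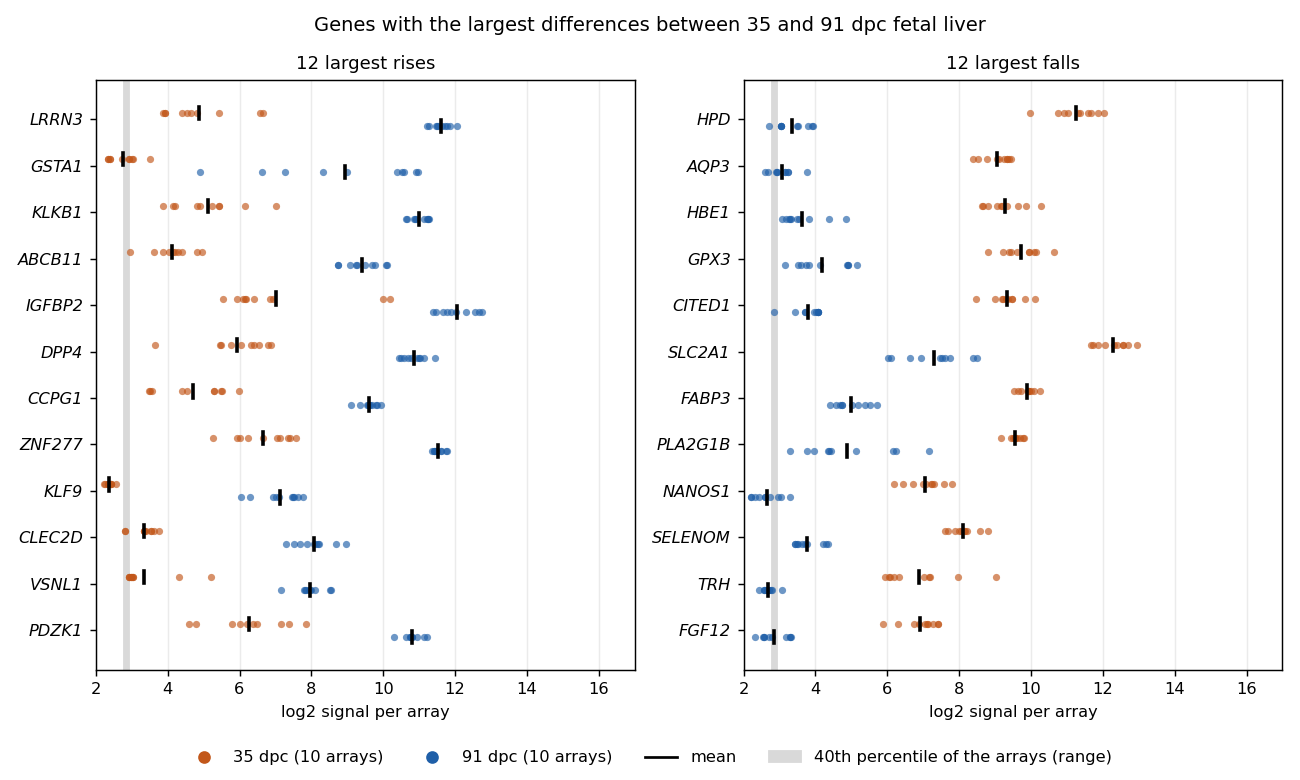
Log2 signal of the 12 genes with the largest rises (left) and the 12 with the largest falls (right) on each of the 10 arrays of 35 dpc and the 10 of 91 dpc, with means as bars and the range of the arrays' 40th percentiles in grey. In no gene shown do the stages overlap, KLF9 starts within background and TRH and NANOS1 end there, and GSTA1 and PLA2G1B spread widely at 91 dpc.

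Most genes for secreted proteins of the hepatocyte rose, some of them steeply. Of 33 plasma protein genes tested, 20 were called higher and 8 lower, with a median difference of 0.32, against 33.2% and 49.2% and a median of -0.25 over all genes. ALB, serum albumin, had lowest, median and highest levels of 9.90, 11.48 and 12.34 in the early arrays against 15.17, 15.35 and 15.47 in the late arrays, and rose by 3.93 ± 0.21 (limma adjusted p = 3.49e-13). ITIH3, an inter-alpha-trypsin inhibitor chain that stabilises hyaluronan, rose by 2.93 ± 0.18, SERPINA7, the thyroxine carrier, by 2.31 ± 0.14, and KNG1, kininogen, by 2.22 ± 0.18. Others did not pass: TTR, transthyretin, had a difference of 0.10 ± 0.048, adjusted p = 0.0505 by limma, haptoglobin (HP) one of -0.065 and hemopexin (HPX) one of -0.032. ORM1, an acute phase glycoprotein, rose by 0.32 to levels of 16.34 to 16.55, the highest value on these arrays. SERPINA6, the carrier of cortisol in blood, went the other way, from 13.38 ± 0.23 to 10.76 ± 0.42 (SD, n = 10 each), a fall by 2.62 ± 0.14 and the deepest of the list.

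Of the 38 lists, coagulation had the largest share of rises, 14 of 15 genes, with a median of 1.07. F5, coagulation factor V, rose by 2.999 ± 0.17, F9, factor IX, by 2.79 ± 0.13, and PROS1, the anticoagulant protein S, by 2.61 ± 0.16. The fibrinogen chains FGB and FGG rose by 1.47 and 1.56, and PLG, plasminogen, which was already at a mean of 14.23, by 0.23. The only gene of the list to fall was VWF, by 1.48 ± 0.18, whose protein is made by endothelium and megakaryocytes rather than by hepatocytes.

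Among 24 complement genes 15 were called higher and 4 lower, with a median of 1.15. In the terminal pathway C5 rose by 4.20 ± 0.22, the largest rise of the list, C9 by 3.03 ± 0.21, and C8B, C8A and C7 by 1.66, 1.36 and 1.30, while C8G had a difference of 0.30 that did not pass. C3, the central component, rose by 2.13 ± 0.18 to 14.58 to 15.27, and the factor B gene CFB by 2.04. C1S and C1R, the proteases of the first component, rose by 2.43 and 2.03, whereas C1QA and C1QC, which macrophages make, had differences of -0.22 and -0.04 that did not pass. Both chains of the C4b-binding protein rose, C4BPA by 3.41 and C4BPB by 3.31. C4A fell by 0.81.

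Lipid export, cholesterol synthesis and bile formation rose together in most members. Of 18 lipoprotein genes 11 were called higher and 4 lower (median 0.63). APOB, the structural protein of very low density lipoprotein, rose by 3.14 ± 0.15, MTTP, which loads it with lipid, by 1.61 ± 0.17, and ABCA1, which passes cholesterol to apolipoprotein A-I, by 3.18 ± 0.24. APOA1 itself rose by 0.24, and APOA2 had a difference of 0.081 that did not pass. ANGPTL4, an inhibitor of lipoprotein lipase, fell by 2.49 ± 0.22.

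In cholesterol synthesis 8 of 13 genes were called higher and 2 lower (median 1.23). SC5D, MSMO1 and CYP51, which act on sterol rings late in the pathway, rose by 3.07, 2.49 and 2.71, SQLE, the squalene epoxidase, by 2.27, and HMGCS1 near the start of the pathway by 1.97. FDPS and NSDHL fell by 0.35 and 0.37. SREBF2, the transcription factor that governs these genes, had a difference of -0.09 ± 0.14, adjusted p = 0.567 by limma. Bile acid genes included 7 rises among 9 (median 1.70). Beside ABCB11, the uptake carrier SLC10A1 rose by 2.83 ± 0.21 and ATP8B1, a lipid flippase of the canalicular membrane, by 3.54 ± 0.28. CYP27A1, a sterol hydroxylase of bile acid synthesis, fell by 0.77 ± 0.11.

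Glycolysis went down as a group, with 16 of 19 genes called lower, 2 higher and a median of -1.12. After SLC2A1, the muscle-type phosphofructokinase PFKM fell by 2.69 ± 0.15, the kinase PDK3 by 2.63, the neuronal glucose transporter SLC2A3 by 2.40, TPI1 by 2.04 and lactate dehydrogenase A (LDHA) by 1.29. GAPDH, often used as a reference gene, fell by 0.77 ± 0.06 and did not keep its level in this comparison. The 2 genes that rose were PDK4, which restrains the entry of pyruvate into the citrate cycle and is known from fasting, and the hepatocyte glucose transporter SLC2A2. PDK4 had lowest, median and highest levels of 2.20, 3.40 and 4.32 in the early arrays against 6.22, 7.66 and 8.97 in the late arrays, with no overlap (difference 4.46 ± 0.33). The erythroid markers described below fell in the same arrays, their mean level per array being 10.69 to 11.21 at 35 dpc against 8.33 to 9.40 at 91 dpc, and their part in the fall of the glycolytic genes was not tested.

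The opposite pathway was mixed: of 21 genes for gluconeogenesis and glycogen 11 were called higher and 7 lower (median 0.34). PPARGC1A, a coactivator of gluconeogenic and mitochondrial genes, went from 2.69 ± 0.32 to 6.50 ± 0.31 (SD, n = 10 each), starting near background on 7 of 10 early arrays (at least 11.8-fold higher, limma adjusted p = 6.91e-15). UGP2, which makes the activated glucose for glycogen, rose by 2.73 ± 0.17, FBP1, fructose-bisphosphatase, by 1.65 ± 0.15, and PYGL, liver glycogen phosphorylase, by 1.15 ± 0.088. GPT, alanine aminotransferase, fell by 2.21 ± 0.22. PCK1, the cytosolic enzyme that commits carbon to glucose, had a difference of -0.41 ± 0.24, adjusted p = 0.122 by limma, with levels of 7.97, 9.27 and 10.01 in the early arrays against 7.96, 8.77 and 9.42 in the late arrays.

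Fatty acid oxidation split in 2 directions, 13 genes higher and 10 lower of 26 (median 0.33). Acyl-CoA synthetases ACSL1 and ACSL4 rose by 1.80 and 2.17, and the liver fatty acid binding protein FABP1 by 1.73. The medium-chain dehydrogenase ACADM rose by 1.37, while the very-long-chain and short-chain ones, ACADVL and ACADS, fell by 1.45 and 1.53. The electron carrier subunits also parted, ETFA rising by 1.58 and ETFB falling by 1.15. CPT1A, the entry gate for fatty acids into mitochondria, rose by 0.97, and SLC25A20, the carnitine carrier behind it, fell by 1.60. For fatty acid and triglyceride synthesis 9 of 16 genes were lower and 2 higher (median -0.48). The 2 rises became 1 without control diet 35 dpc replicate 2 or 3 or methyl diet 35 dpc replicate 4, 4 without methyl diet replicate 2 at 35 dpc or 4 at 91 dpc, and 5 without methyl diet 35 dpc replicate 3. LPIN2 and AGPAT2 fell by 2.31 and 2.07 and FASN, fatty acid synthase, by 0.83, whereas the elongase ELOVL6 rose by 1.61. SCD, the stearoyl-CoA desaturase, had a difference of 0.27 that did not pass.

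Urea cycle and amino acid genes were close to the share over all genes, with 9 higher and 12 lower of 25 (median -0.23). Within the urea cycle, CPS1, which fixes ammonia in the first step, rose by 1.80 ± 0.13 and OTC by 0.68, ASL fell by 1.32 ± 0.15, and ASS1 and ARG1 had differences of -0.23 and -0.12 that did not pass. GLUL, glutamine synthetase, rose by 1.47. The tyrosine pathway ran in both directions: TAT, its first enzyme and a known glucocorticoid target, rose by 1.74 ± 0.17, from 10.06 to 11.23 up to 11.37 to 12.98. The enzyme after it, HPD, had the deepest fall of the named genes, and the later enzymes GSTZ1 and FAH fell by 0.70 and 0.62. On the tryptophan side KYNU and KMO rose by 3.02 and 1.76. AMT, of the glycine cleavage system, and CDO1, which oxidises cysteine, fell by 2.57 and 1.81.

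Enzymes for foreign compounds and steroids had 19 rises and 6 falls among 31 genes (median 0.55). Among cytochrome genes of the 2C family, CYP2C91 was near background on 10 of 10 early arrays and CYP2C42 on 7, so that their rises are given as at least 6.08-fold and at least 5.45-fold. CYP2C49 was measured at both stages and rose by 1.70, while CYP2C33 was bright at both stages, at 12.71 to 12.68, and did not pass (difference -0.026). These genes are near-identical copies, so probe sets may cross-react. CYP3A39 fell by 1.39 ± 0.23. SULT2A1, which sulfates steroids and bile acids, was near background on 10 of 10 early arrays and rose at least 4.72-fold. NR1I2, the xenobiotic receptor PXR, was near background on 10 early and 3 late arrays and was at least 1.57-fold higher at 91 dpc. ALDH1A1, a retinaldehyde dehydrogenase, rose by 2.25. MGST3, a microsomal glutathione transferase, fell by 2.35 ± 0.13, the largest fall of the list.

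Transcription factors of the hepatocyte were called higher in 12 and lower in 4 of 20 genes (median 0.60). NFIB and NFIA, nuclear factor I proteins, had the largest rises. NFIB had lowest, median and highest levels of 3.46, 3.98 and 4.51 in the early arrays against 7.60, 8.52 and 9.12 in the late arrays (difference 4.46 ± 0.20), without overlap, and NFIA rose by 3.27 ± 0.20. NR5A2, a regulator of bile acid and cholesterol genes, rose by 3.16 ± 0.18 and FOXA2 by 1.62 ± 0.13. HNF4A, the central hepatocyte factor, was at 10.85 to 11.03 with a difference of 0.18 ± 0.085, adjusted p = 0.0596 by limma. CEBPA, which drives hepatocyte maturation, fell by 1.66 ± 0.25, and CEBPB, its partner in the acute phase response, had a difference of 0.039 that did not pass.

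Glucocorticoid targets and clock genes had 8 rises and 5 falls among 17, with a median of 0.28 that became -0.019 under quantile normalization. Beside KLF9 and TAT, the clock factor ARNTL rose by 2.36 ± 0.10, SGK1, a hormone-responsive kinase, by 1.60 ± 0.14, and NR3C1, the glucocorticoid receptor, by 1.38 ± 0.15. PER1 fell by 1.07 and the metallothionein MT1A by 0.91. FKBP5, another known target of the receptor, had a difference of 0.28 that did not pass. The times of day at which the livers were taken are not among the labels used here.

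In the IGF axis 5 genes (33.3%) were higher and 4 (26.7%) lower of 15, against 33.2% and 49.2% over all genes. The median of 0.068 became -0.07 under quantile normalization. Among 3 binding proteins tested, IGFBP2 rose by 5.03 ± 0.50 and IGFBP1 by 1.92 ± 0.21, although a second, dimmer probe set of IGFBP1 was called lower, and IGFBP5 had a difference of 0.016 that did not pass. EGFR rose by 2.13. The signal transducers STAT5A and STAT5B fell by 2.78 and 2.15, and GRB10, an imprinted brake on insulin and IGF signalling, by 1.48. Of the genes listed for embryonic and fetal liver 8 of 15 (53.3%) were lower and 4 (26.7%) higher, with a median of -1.48. These shares were near the 49.2% and 33.2% over all genes, while the median lay below theirs, -0.25. EPO, erythropoietin, which the fetal liver makes before the kidney does, went from 6.20 ± 0.96 to 3.04 ± 0.49 (SD, n = 10 each), near background on 1 of 10 late arrays (at least 8.58-fold lower, limma adjusted p = 7.97e-09). HMGA1, a chromatin protein of growing cells, fell by 3.79 ± 0.23 and the imprinted genes PLAGL1 and MEG3 by 1.86 and 1.53, whereas the imprinted genes PEG10 and PEG3 rose by 2.55 and 2.18.

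Pairs of an early and a late form of one function did not all switch. AFP, alpha-fetoprotein, had lowest, median and highest levels of 15.49, 15.75 and 15.95 in the early arrays against 15.67, 15.82 and 15.91 in the late arrays. The stages overlapped, and the difference was 0.089 ± 0.058, adjusted p = 0.163 by limma, though after quantile normalization it was 0.16 and passed (adjusted p = 0.0129). Its partner ALB rose by 3.93. AFP lay close to the highest value on these arrays, 16.55, and whether its signal was limited there was not tested. Globins did part: HBE1 fell by 5.65 ± 0.24, and HBB, the later beta globin, rose from 5.37 to 7.41 up to 7.94 to 9.03 (difference 2.02 ± 0.22). Glucose transporters parted in the same way, SLC2A1 by -4.99 and SLC2A2 by 1.58. The levels of SLC2A2 also followed the spike-in gap of the arrays. At 35 dpc they were 6.71 to 7.15 on the small-gap arrays and 4.52 to 6.07 on the others. At 91 dpc they were 7.81 to 8.80 on the small-gap arrays and 6.76 to 7.64 on the others.

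For IGF2, the fetal growth factor, the brightest of 9 probe sets had a difference of 0.068 ± 0.071, adjusted p = 0.385 by limma, and 2 of the dimmer ones were called lower. IGF1, the postnatal form, was at 3.62 to 3.31 and had a difference of -0.31 ± 0.15, adjusted p = 0.0551 by limma. S-adenosylmethionine synthetases moved against the usual order, with the general form MAT2A rising by 1.18 ± 0.12 and the liver form MAT1A falling by 0.48 ± 0.082. For aminolevulinate synthase, the erythroid form ALAS2 fell by 2.41 and the housekeeping form ALAS1 rose by 0.49. For troponin I, a muscle protein, the slow TNNI1 fell by 3.78 and the fast TNNI2 rose by 3.66. The part of muscle tissue in these differences was not tested. Hexokinase 1 (HK1) and aldolase C (ALDOC) fell by 1.81 and 1.55, and liver phosphofructokinase (PFKL) by 1.69. PKM, the pyruvate kinase of fetal and growing tissue, had a difference of 0.15 ± 0.088, adjusted p = 0.133 by limma, with the recurring value 4.997 on 3 early arrays and 1 late one. HSD11B1, which activates cortisol in liver, rose by 0.29.

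**Figure D2:**
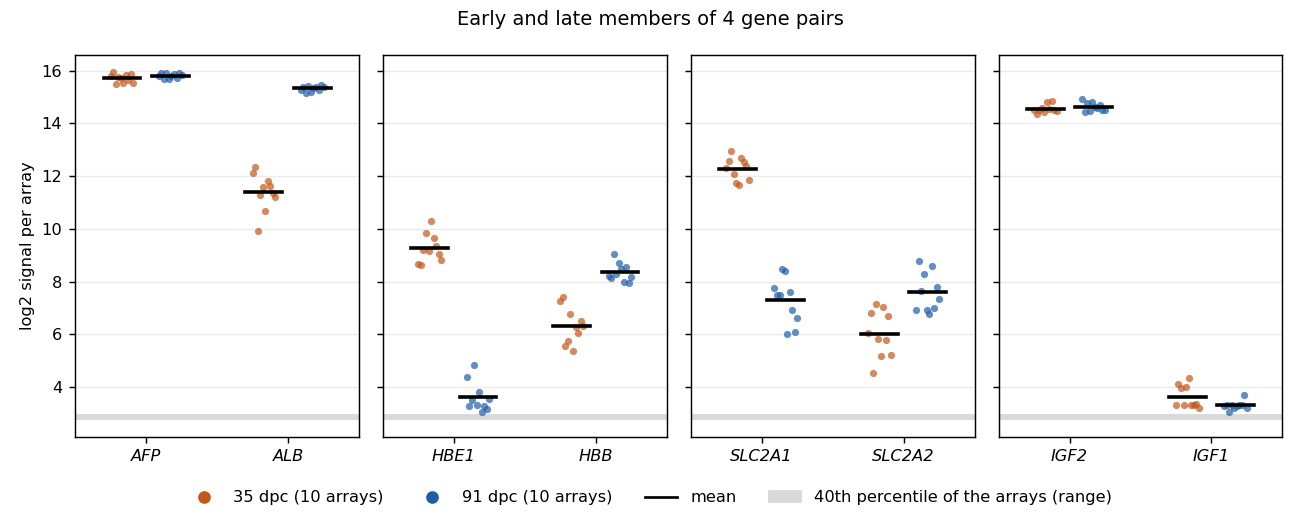
Log2 signal on each array of 35 dpc and 91 dpc for 4 pairs of an early (left) and a late form (right), with means as bars and the range of the arrays' 40th percentiles in grey. For AFP, IGF2 and IGF1 the stages overlap, ALB and HBB rise and HBE1 and SLC2A1 fall without overlap, and SLC2A2 rises with overlap. Among the small-gap arrays alone, and among the other arrays alone, the stages of SLC2A2 do not overlap.

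Red blood cell genes had the lowest median of the 38 gene lists. Of 15 erythroid genes tested 12 were lower and 1, HBB, higher, with a median of -2.07, and their mean level per array was 10.69 to 11.21 at 35 dpc against 8.33 to 9.40 at 91 dpc. KLF1, the master regulator of the lineage, had lowest, median and highest levels of 11.53, 12.001 and 12.50 in the early arrays against 7.46, 8.62 and 9.43 in the late arrays, with no overlap (difference -3.49 ± 0.20, limma adjusted p = 1.02e-12). EPOR, the erythropoietin receptor, fell by 3.30 ± 0.16, BCL11A, a repressor in globin switching, by 3.95 ± 0.18, and LMO2 by 2.12. AHSP, which holds free alpha globin, fell by 1.90 ± 0.16 but kept a late mean of 12.75. None of the 15 genes was near background on any array of 91 dpc, where ALAS2 still averaged 11.79 and KLF1 8.53. TFRC, the transferrin receptor, passed narrowly (fall by 1.29 ± 0.59, limma adjusted p = 0.049) and lost its call in 21 of 38 alternatives. EPB41 and XPO7 did not pass.

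Haem and iron genes followed, with 14 of 20 lower and 4 higher (median -1.07). Enzymes along the pathway fell: ALAD by 2.54, UROD by 3.05 ± 0.16, PPOX by 2.78 and FECH, which inserts the iron, by 1.54. The mitochondrial carriers SLC25A38 and SLC25A39, which serve haem and glutathione, fell by 2.87 and 2.998, and BLVRA, which reduces biliverdin to bilirubin, by 3.28 ± 0.19. STEAP4, a metal reductase, started near background on 6 of 10 early arrays and rose at least 18.3-fold. The iron regulatory proteins ACO1 and IREB2 rose by 1.31 and 1.33. HAMP, the iron hormone hepcidin, had a difference of 0.06 that did not pass.

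Other blood lineages are given next. Among 13 stem, progenitor and megakaryocytic genes 9 were lower and 3 higher (median -0.57). The platelet integrins ITGA2B and ITGB3 fell by 1.90 and 1.14, and the stem cell receptor gene KIT by 0.57. CXCL12, the chemokine that holds stem cells in a niche, rose by 1.46, and the stem cell factor MEIS1 by 1.70. ERG, another such factor, was near background on 5 of 10 early arrays and rose at least 4.31-fold. Neutrophil genes had 3 falls (27.3%) and 0 rises among 11, and 8 were not called. Falls were thus below the 49.2% over all genes, and the median of -0.24 was near theirs, -0.25. The azurophil proteases PRTN3 and ELANE fell by 1.46 and 1.15, and the lactoferrin gene LTF had a difference of 0.16 that did not pass. The count of 0 rises became 1, NPG4, in 12 of 38 alternatives, among them without methyl diet replicate 2 or 3 at 35 dpc, control diet replicate 1 at 91 dpc or methyl diet replicate 3 at 91 dpc. S100A8 lost its call in 6.

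Macrophage and antigen presentation genes had more rises than falls. Of 17 macrophage genes 9 were higher and 4 lower (median 0.37), with mean levels per array of 7.58 to 8.34 at 35 dpc against 8.59 to 9.06 at 91 dpc. MRC1, the mannose receptor of macrophages and sinusoidal endothelium, had lowest, median and highest levels of 5.62, 6.64 and 7.55 in the early arrays against 9.98, 10.22 and 10.60 in the late arrays and rose by 3.58 ± 0.18. CD5L, a protein of Kupffer cells, rose by 2.36 ± 0.12, CD163, the haemoglobin scavenger receptor, by 1.89, and CD14, the endotoxin co-receptor, by 2.39. Other members did not follow: HMOX1, which breaks down haem, fell by 1.71 ± 0.099, the signalling adaptors TYROBP and FCER1G by 0.71 and 0.75, and the Kupffer cell receptors MARCO and VSIG4 had differences of -0.16 and -0.097 that did not pass. Among the pig MHC genes, called SLA, class II SLA-DRA rose by 3.58 ± 0.30, SLA-DQA1 by 2.54, SLA-DQB1 by 2.01 and SLA-DRB1 by 1.97, and the invariant chain CD74 by 2.64. Of the class II genes that help load peptides, SLA-DMA rose by 0.20 and SLA-DMB had a difference of 0.047 that did not pass. Class I SLA-2 and SLA-3 rose by 1.42 and 1.04, SLA-8 fell by 0.35 but lost its call in 22 of 38 alternatives, and B2M, their light chain, was at 16.001 to 15.87 and did not pass. SLA genes are near-identical, so their probe sets may share targets. In the whole list 9 of 17 were higher and 1 lower (median 0.20), and the single fall became 0 or 2 without 1 array in 9 of 20 cases.

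Interferon-induced genes gave 11 rises and 2 falls among 17 (median 0.83). EIF2AK2, the RNA-activated kinase that stops translation, rose by 4.10 ± 0.30, from 2.71 to 5.37 up to 7.45 to 8.73, and IFIT1, which binds foreign RNA, by 2.59 ± 0.36. IFI44L and SAMHD1 rose by 2.42 and 2.20. ISG15 and its protease USP18 fell by 1.29 and 1.32, and MX1, OAS1 and IRF9 did not pass, so the list did not move as one.

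Stromal groups were mixed. Endothelial genes had 8 rises and 3 falls among 15 (median 0.41). Beside MRC1, which is on this list too, FCGR2B, an antibody receptor that clears immune complexes, rose by 3.51 ± 0.22, TEK, the angiopoietin receptor of endothelium, by 2.90 ± 0.22, and LYVE1, a hyaluronan receptor, by 1.48. CDH5, the cadherin of all endothelium, had a difference of 0.19 that did not pass. Stellate cell, fibroblast and matrix genes had 9 rises (33.3%) and 12 falls (44.4%) among 27 (median -0.15). These shares were near the 33.2% and 49.2% over all genes. POSTN, periostin, rose by 4.41 ± 0.25, LAMB1, a laminin chain, by 2.63 and FBN1, fibrillin, by 2.21. TIMP1, FBLN1, COL1A2 and ACTA2 fell by 1.73, 1.84, 0.55 and 0.92.

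Of 12 bile duct genes 8 were lower and 3 higher (median -0.33). The genes that rose were EPCAM, an epithelial adhesion protein, from 4.19 ± 0.45 to 7.92 ± 0.46 (SD, n = 10 each), ANXA4 by 2.46 and JAG1, the Notch ligand of duct formation, by 1.76. KRT19, a keratin of mature ducts, had a difference of -0.18 ± 0.34, adjusted p = 0.633 by limma, and the water channel AQP1, which red cells carry too, fell by 2.38. Markers of neighbouring tissues had 8 falls and 3 rises among 13, with mean levels per array of 6.18 to 6.89 at 35 dpc against 5.60 to 6.16 at 91 dpc. Among the pancreatic enzymes PLA2G1B and CELA1 fell, CELA1 by 2.56, and AMY2, amylase, rose by 2.19 to a late mean of 14.60. GP2, a defining gene of pancreatic acini, was at 3.30 to 3.38 and did not pass. The part of these tissues in the results was not tested.

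Cell division genes had the second-lowest median of the 38 lists. Of 42 genes tested 33 were lower and 4 higher, with a median of -1.95, and the stages did not overlap for 31 of them, against 47.2% of all genes. The replicative helicase genes MCM2, MCM3, MCM4 and MCM5 fell by 2.83, 3.10, 2.69 and 3.16. RRM2, the regulated subunit of ribonucleotide reductase, had lowest, median and highest levels of 12.56, 13.02 and 13.22 in the early arrays against 8.30, 9.40 and 10.13 in the late arrays and fell by 3.63 ± 0.20 (limma adjusted p = 4.26e-13), with no overlap. RRM1, the constant subunit, had a difference of 0.0029 that did not pass. The mitotic kinases PLK1, AURKA and AURKB fell by 3.18, 2.72 and 3.07, the transcription factor MYBL2 by 2.88 and the anaphase gene PTTG1 by 3.05. TOP2A, GMNN, CENPF and RRM2B were the 4 genes called higher, TOP2A by 0.97 ± 0.20. Erythroid genes fell in the same arrays, and their part in this fall was not tested.

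**Figure D3:**
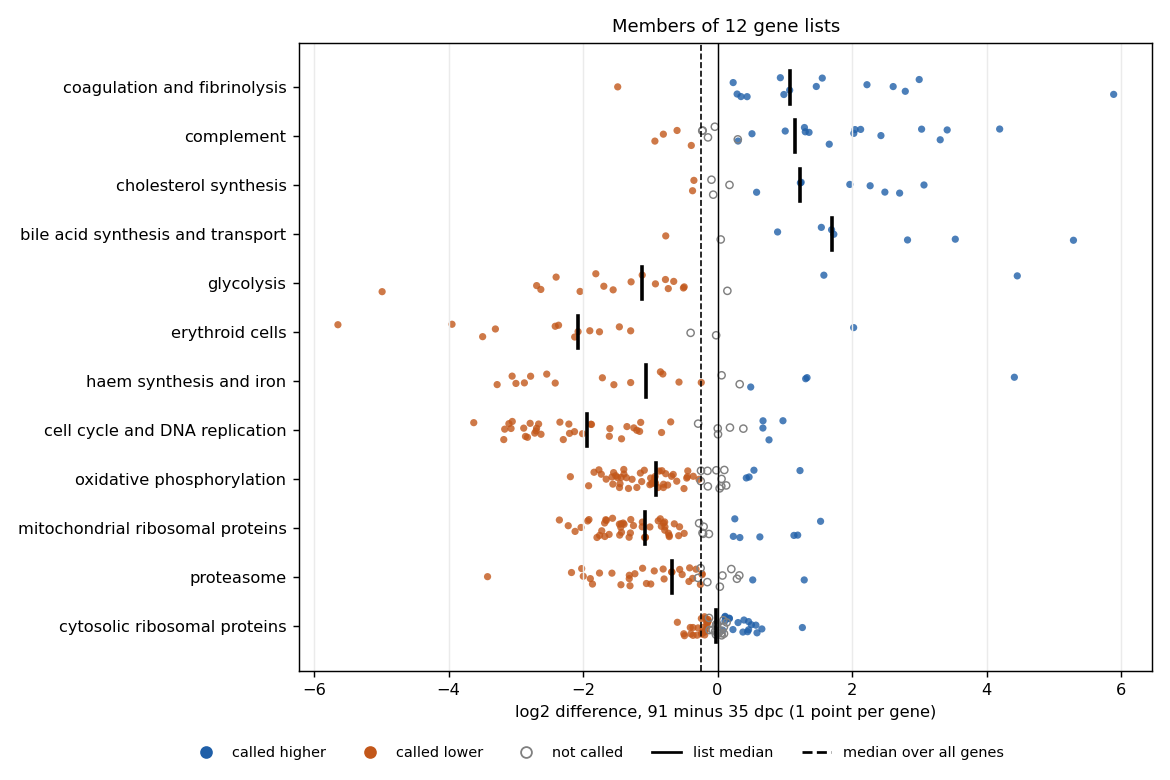
Log2 difference (91 minus 35 dpc) of each tested member of 12 gene lists, filled where limma called it, with the list median as a bar and the median over all genes, -0.25, as a dashed line. Coagulation, complement, cholesterol and bile acid genes lie mostly to the right, cell cycle, erythroid, haem, glycolytic, mitochondrial and proteasome genes mostly to the left, and cytosolic ribosomal proteins close to 0.

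Mitochondrial and protein turnover genes fell broadly and by smaller steps. Of 61 genes of oxidative phosphorylation 47 were lower and 4 higher (median -0.92). Complex I, which made up 32 of these genes, had 27 falls and 3 rises, from NDUFB7 (-2.19) to NDUFA5 (1.23). ATP synthase had 11 falls and 1 rise among 14 genes, complex IV 5 falls among 7 and complex II 2 among 4. Complex III, counted together with cytochrome c (CYCS), had 1 fall among 3. Mitochondrial ribosomal proteins had 46 falls and 7 rises among 58 (median -1.08), alike in the small subunit (median -1.19) and the large one (-1.07). Cytosolic ribosomal proteins, by contrast, had a median of -0.024, with 18 (30.5%) higher and 25 (42.4%) lower of 59. These shares were near the 33.2% and 49.2% over all genes. The member farthest from 0 was RPL5, which rose by 1.26 ± 0.087.

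The proteasome had 30 falls and 2 rises among 40 genes (median -0.68), 13 of the falls among 16 genes of its core and 12 among 17 of its cap. The 2 rises became 4 without control diet replicate 1 or 2 at 35 dpc or replicate 2 at 91 dpc. PSMB3 fell by 3.42 ± 0.25, the largest of these. Antioxidant enzymes had 26 falls and 4 rises among 33 (median -1.0001). GPX1, the cytosolic glutathione peroxidase, fell by 1.90 ± 0.11 and PRDX2, a peroxiredoxin abundant in red cells, by 2.07 ± 0.14. The 4 genes that rose were the selenium carrier SELENOP by 1.84, the mitochondrial dismutase SOD2 by 1.26, catalase (CAT) by 0.97 and GCLC, of glutathione synthesis, by 1.11.

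Translation factors and chaperones divided. Translation factors had 16 rises (38.1%) and 22 falls (52.4%) among 42, with a median of -0.28. These were close to the values over all genes, 33.2%, 49.2% and -0.25. Within the EIF3 complex EIF3E and EIF3A rose by 2.80 and 2.10 while EIF3I fell by 1.62. Among 38 chaperones 17 were higher and 11 lower (median 0.19). Those of the endoplasmic reticulum went both ways: HSP90B1, CANX and HSPA5 rose by 2.91, 1.9998 and 1.18, CALR and DNAJB11 fell by 1.08 and 0.53, and PDIA3, PDIA4, PDIA6 and DNAJB9 did not pass. So did those of the cytosol: HSPA4 and HSP90AA1 rose by 1.42 and 0.81, and DNAJB1 and the co-chaperones STIP1, FKBP4 and CDC37 fell by 1.91, 1.59, 1.61 and 1.19. Solute carriers had 53 falls and 16 rises among 86 (median -0.47). The amino acid carriers SLC1A5 and SLC7A1 fell by 3.57 ± 0.14 and 2.36 ± 0.11.

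**Figure D4:**
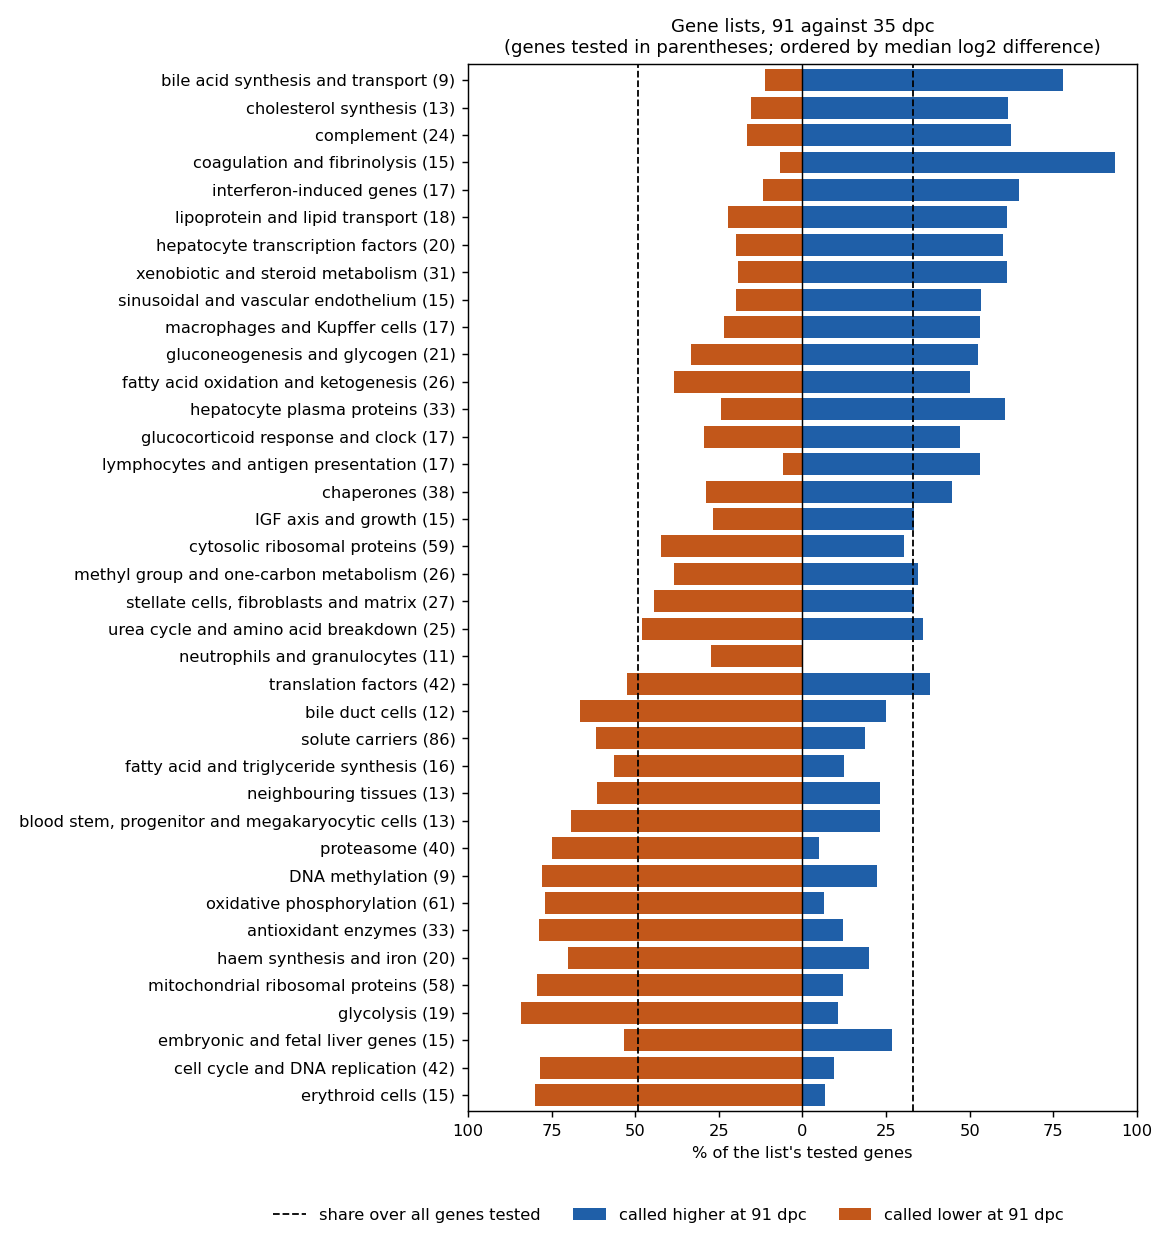
Share of each list's tested genes that limma called higher (right) and lower (left) at 91 dpc, for all 38 lists ordered by their median difference, with dashed lines at the shares over all genes tested, 33.2% and 49.2%. Bile acid, cholesterol, complement and coagulation genes are at the top, and erythroid, cell cycle, fetal liver and glycolysis genes at the bottom.

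Genes of methyl group metabolism, the pathway of the diet's micronutrients, changed with stage in both directions. Of 26 tested 9 (34.6%) were higher and 10 (38.5%) lower, with a median of -0.11. Over all genes the shares were 33.2% and 49.2%, so rises were near that share and falls below it. Of the enzymes around betaine, CHDH, which oxidises choline on the way to betaine, went from 4.25 ± 0.75 to 6.41 ± 0.29 (SD, n = 10 each), a difference of 2.16 ± 0.23 (limma adjusted p = 2.59e-08), and BHMT, which passes its methyl group to homocysteine, rose by 1.49 ± 0.24. ALDH7A1, which oxidises betaine aldehyde among other aldehydes, had a difference of -0.23 that did not pass. MTR, the other enzyme that remethylates homocysteine, was at 2.89 to 2.81, near background on 2 early and 6 late arrays, and did not pass. AHCY, which removes S-adenosylhomocysteine, fell by 1.17 ± 0.10, and GNMT, a methyltransferase of mature liver, by 0.84. Folate enzymes went both ways: the mitochondrial MTHFD2 and MTHFD1L fell by 2.20 ± 0.21 and 0.64, TYMS, which makes thymidylate, by 1.87 ± 0.20 and ALDH1L1, which oxidises formyl folate, by 1.08, whereas the cytosolic MTHFD1 rose by 0.25. GGH, which trims folate chains, rose by 1.66 ± 0.12. SHMT1 and PEMT had differences of 0.15 and -0.13 that did not pass.

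Among 9 genes of DNA methylation 7 (77.8%) were lower and 2 (22.2%) higher (median -0.72), against 49.2% and 33.2% over all genes. DNMT1, the maintenance methyltransferase, fell by 0.41 ± 0.12, and DNMT3B, a de novo enzyme of embryonic cells, at least 3.60-fold to levels near background on 5 of 10 late arrays, while DNMT3A rose by 0.74 ± 0.20. ZBTB33, a reader of methylated DNA also known as Kaiso, rose by 3.06 ± 0.25 with no overlap between the stages. The remaining falls were in genes of the MBD and GADD45 families, not in methyltransferases. A member of each family lost its call in the control-diet arrays alone. In the small-gap arrays alone a GADD45 gene and DNMT3A did.

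The arrays of one stage differed from each other more for some genes than for others. After removal of the diet means, the median SD over probe sets was 0.35 at 35 dpc and 0.31 at 91 dpc. At 35 dpc IGFBP2 had an SD of 1.57: 8 arrays lay between 5.53 and 6.92, and the methyl diet replicates 2 and 3 at 9.997 and 10.18. These same 2 arrays were among the top 2 of their stage for 7 and 8 of the 12 genes with the largest rises. Over these genes, of which IGFBP2 is itself a member, they averaged 5.72, against 3.92 to 4.83 on the other early arrays. Over all probe sets tested, other early arrays lay nearest to 91 dpc on the first component. Those were control diet replicates 1 and 2, at -56.6 and -57.1, against -88.9 and -82.4 for methyl diet replicates 2 and 3. Control diet replicate 3 was the lowest early array for 5 of the 12 genes. PAQR8, a membrane progestin receptor, had an SD of 1.75 at 35 dpc and smooth muscle actin ACTG2 one of 1.70. The transferrin receptor TFRC had SDs of 1.56 and 1.45 at the early and late stage, and its levels followed the spike-in gap of the arrays. At 35 dpc they were 7.40 to 9.55 on the 4 small-gap arrays and 4.71 to 6.86 on the 6 others, and at 91 dpc 6.29 to 7.42 on the 4 small-gap arrays and 3.35 to 5.46 on the 6 others. With the gap as a block its stage difference was -1.29 (limma adjusted p = 1.26e-04). With the 3' to 5' signal difference as a covariate it was -0.89 and did not pass (limma adjusted p = 0.081). FCN2, a lectin of the complement system, and IL1R1, the interleukin-1 receptor, spread at 35 dpc and narrowed to 0.52 and 0.24 at 91 dpc.

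At 91 dpc the widest spread was in EIF1AY, a translation factor gene of the Y chromosome, with 2 arrays (methyl diet replicates 4 and 5) near background and the other 8 at 7.04 or above. GSTA1 came next with an SD of 2.22, its late levels running from 4.90 to 10.96. APCS, the pentraxin known as serum amyloid P, had a late SD of 1.31 after one of 0.25 at 35 dpc. UPB1, which degrades pyrimidines, CLEC3B, tetranectin, and DUSP9, a phosphatase that acts on MAP kinases, had late SDs of 1.33, 1.31 and 1.30. The late levels of CLEC3B and DUSP9 also parted by the spike-in gap. Those of CLEC3B were 8.57 to 9.21 on the 4 small-gap arrays and 5.75 to 7.38 on the 6 others. Those of DUSP9 were 9.48 to 9.94 on the 4 small-gap arrays and 6.79 to 7.91 on the 6 others. Part of this spread therefore moved with the arrays. DUSP9 parted at 35 dpc as well, at 10.63 to 10.97 on the 4 small-gap arrays and 8.08 to 10.485 on the 6 others.

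**Figure D5:**
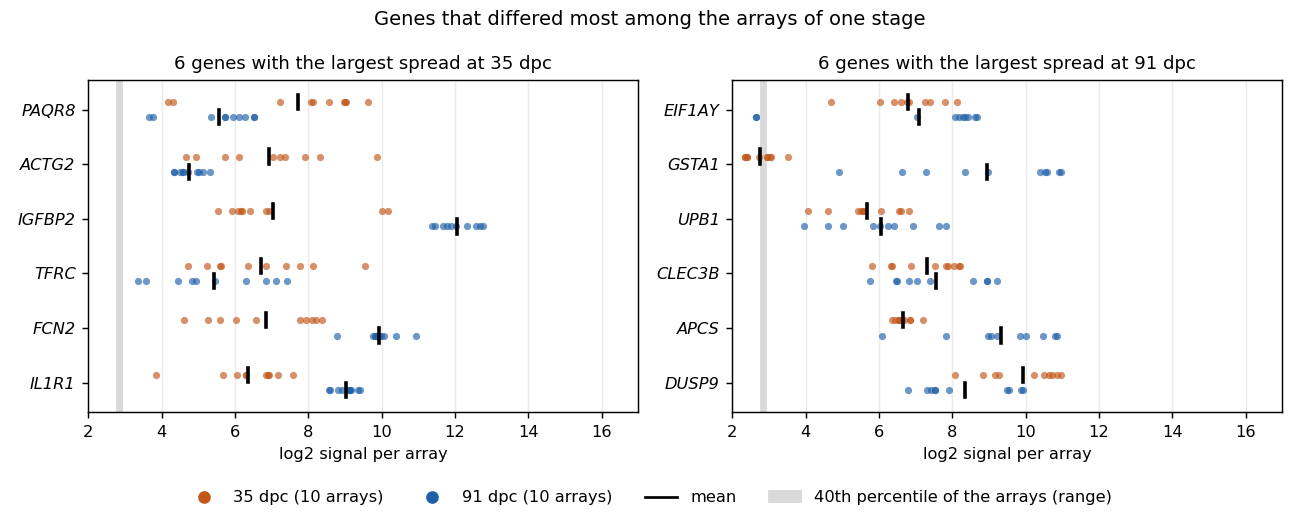
Log2 signal on each array for the 6 genes with the largest spread among the arrays of 35 dpc (left) and of 91 dpc (right), with means as bars and the range of the arrays' 40th percentiles in grey. IGFBP2 has 2 early arrays near 10 and 8 below 7, EIF1AY has 2 late arrays in background, and GSTA1 ranges over 6 units at 91 dpc.

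The change from 35 to 91 dpc was also compared between the diets. limma called 0 of 14948 probe sets (0%) for the interaction of stage and diet, with 586 at an unadjusted p under 0.05 and a smallest adjusted p of 0.994. The named gene with the smallest p was A1BG, a plasma glycoprotein, which rose by 2.79 in control and by 1.33 in methyl diet fetuses, a difference of -1.46 ± 0.33 (limma adjusted p = 0.994). ASAP1, MKNK1, DHRS11 and BLOC1S1 followed, with interaction differences of -0.99, -0.94, -0.98 and -0.98. Nor did the diet term pass for any probe set (0%), with 858 at an unadjusted p under 0.05. Of the named genes CTH, which makes cysteine from cystathionine, came closest, lower in the methyl diet by a log2 difference of -0.49 ± 0.097 (limma adjusted p = 0.290) over both stages, next to a stage difference of 0.43. SPP1, osteopontin, differed by -0.56, VSIG2 by -0.48, FLNA, filamin A, by 0.40 and HSPA8, a chaperone, by -0.33.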

How the data were processed

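The expression values, 1 per probe set and array, were used for the 20 arrays of fetal liver at 35 and 91 dpc. The authors deposited these values on a log2 scale, from 2.20 to 16.55, with the normalization not given in the sources used here. The submitters' processing notes list GCOS 1.1.1 and do not say what it was used for. Per the labels' protocols, biotinylated cRNA was made from 0.5 ug of total RNA. Of 24123 probe sets, 124 controls were set aside, and of 23999 others 10069 had 1 symbol in the array annotation, 198 several and 13732 none.

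The values were used as deposited. Probe sets above the 40th percentile of the array in at least 5 arrays, 14948 in all, were fitted with limma 3.58.1 (R 4.3.3). Stage and diet were terms, eBayes used a trend on intensity, and the fit had 17 residual degrees of freedom beside a prior of 4.36. A probe set is called where its p, adjusted over all 14948 by the Benjamini-Hochberg method, is under 0.05. The interaction came from a fit with stage, diet and their product. A gene is represented by its brightest probe set over the 20 arrays. Precision is limited by the number of arrays. The fit was tested on simulated data with known differences.

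The comparison, its 38 gene lists and its tests were chosen with earlier results of these data known. Of the listed genes 935 were tested and 124 did not pass the filter on low values. The rule for naming genes took the 12 largest rises and falls, the 4 members of smallest p in each list, all measured pair, methyl group and DNA methylation genes, the 6 genes with the largest spread in each stage and the 5 smallest p of the interaction and of diet; not all are printed. Further list members were named as examples after their values were seen. Alternatives were other variance settings, filters, quantile normalization, array weights, all 32 arrays, the spike-in gap, the 3' to 5' ratio and EIF1AY as covariates, 1 probe set per gene, no diet term, group means, other thresholds, single gap groups, single diets and each array left out in turn. A description of promoter motifs was planned and not made. Replicates were numbered in the order of the deposited samples, and no fit pairs them. Replicates 2 and 4 of every group were the arrays with the small spike-in gap, which is a block in one alternative.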

Additional observations from a re-analysis of the deposited data

Results flagged for a closer look

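The genes named above, 326 in number, were searched in each stage for an array far from the other 9 of its stage, by Dixon's test at its critical value for 10 samples. It marked 45 of 652 sets of 10 arrays, or 6.90%, where chance marks about 1 in 20 for normal values without ties. Some marked sets held ties: 9 arrays shared 1 value in GP2 at 91 dpc and in NR1I2 at 35 dpc. Some genes were also named for their spread within a stage. The share of 6.90% therefore cannot be held against that rate. No cause was tested for any of them, and the difference between the stages is given above with all arrays.

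On control diet 35 dpc replicate 1 this was ISG15 at 5.03 (below 5.96 to 6.94). On control diet 35 dpc replicate 2 this was EPO at 3.69 (below 6.07 to 7.11), GRB10 at 7.85 (below 8.42 to 8.96) and IGFBP5 at 2.77 (below 3.24 to 3.65). It also held KIT at 5.91 (above 5.25 to 5.50). On control diet 35 dpc replicate 3 this was CHDH at 2.44 (below 3.75 to 5.09), DPP4 at 3.64 (below 5.46 to 6.87) and MTR at 3.24 (above 2.82 to 3.01). The same array had PKM at 5.21 (above 4.90 to 5.04). On control diet 35 dpc replicate 4 this was ASS1 at 12.64 (above 11.18 to 11.95). On control diet 91 dpc replicate 1 this was ANGPTL4 at 4.76 (above 3.55 to 4.16). On control diet 91 dpc replicate 4 this was C1R at 8.68 (below 9.28 to 9.91), IGFBP5 at 2.67 (below 3.40 to 3.85) and VSIG2 at 3.09 (above 2.20 to 2.60). On control diet 91 dpc replicate 5 this was C1QC at 11.37 (above 10.73 to 11.07) and CITED1 at 2.84 (below 3.44 to 4.07). On methyl diet 35 dpc replicate 1 this was ACADS at 9.41 (above 8.51 to 8.97), ANXA4 at 6.32 (below 7.25 to 8.29) and CD5L at 7.29 (below 7.85 to 8.34). The same array had HMOX1 at 10.77 (above 10.02 to 10.34), IL1R1 at 3.85 (below 5.67 to 7.59) and MCM2 at 10.80 (above 10.08 to 10.45). Further values there were MGST3 at 14.22 (above 13.73 to 13.98) and NDUFB7 at 11.88 (above 10.78 to 11.33). On methyl diet 35 dpc replicate 2 this was CYP2C49 at 4.73 (below 4.88 to 4.98), NR1I2 at 2.30 (above 2.20) and OAS1 at 3.71 (above 2.52 to 2.96). On methyl diet 35 dpc replicate 3 this was FCGR2B at 6.28 (above 4.98 to 5.56). On methyl diet 35 dpc replicate 5 this was ALAS2 at 13.97 (below 14.16 to 14.34), C7 at 4.38 (above 2.35 to 3.12) and CD163 at 5.90 (below 6.45 to 6.95). Further values there were LTF at 7.53 (below 8.38 to 9.30), NPG4 at 11.45 (below 12.64 to 13.42) and SLA-DQA1 at 2.68 (below 3.08 to 3.51). On methyl diet 91 dpc replicate 1 this was GPX1 at 12.003 (below 12.40 to 12.83), MKNK1 at 7.88 (below 8.72 to 9.62) and MT1A at 13.65 (below 14.42 to 15.27). On methyl diet 91 dpc replicate 2 this was PRTN3 at 6.36 (below 6.95 to 7.40). On methyl diet 91 dpc replicate 4 this was DNMT3B at 4.24 (above 2.58 to 3.45), GP2 at 4.75 (above 3.22) and IGF1 at 3.71 (above 3.06 to 3.32). The same array had MEG3 at 4.86 (above 2.30 to 3.40), SC5D at 10.53 (below 11.06 to 11.63) and SLA-DQA1 at 4.43 (below 5.54 to 6.49). Further values there were TYROBP at 6.08 (below 6.81 to 7.37).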

How the results depend on the processing

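limma on the 5539 genes with 1 probe set each called 4578, of which 1845 were higher and 2733 lower, against 11864, 6103 and 5761 over all probe sets; this alternative tests fewer probe sets. The counts of the other alternatives stayed within 1.5 times. With each of the 20 arrays left out in turn, the count called ran from 11592 to 11842, the higher from 5947 to 6142 and the lower from 5582 to 5740. The interaction count ran from 0 to 2, reaching 2 without control diet 91 dpc replicate 5, and the diet term count from 0 to 1, reaching 1 without control diet 35 dpc replicate 3. After quantile normalization 45.0% of the calls were higher, against 51.4%, with 5515 higher and 6750 lower. Of the 11864 calls 11835 kept their sign there, and 11107 of 11131 fitted did in the small-gap arrays alone. Of 375 genes followed singly, 321 were called and 294 of these kept call and sign in every alternative. MMAB, which did not pass at 0.06, was called at -0.25 after quantile normalization, and the cause was not tested. SLA-8, TFRC, TTR, IGF1, NPG4, SLC46A1 and B2M changed their call in 22, 21, 14, 13, 12, 10 and 10 alternatives. Leaving out 1 array brought C1QA (without control diet 91 dpc replicate 5), OAS1 (methyl diet 35 dpc replicate 2), PCK1 (control diet 35 dpc replicate 2) and SHMT1 (control diet 35 dpc replicate 3) past the threshold, and 2 or 3 arrays did so singly for ASS1, C8G, EPB41, HNF4A, PDIA3 and SCD. Of 76 counts of members called in a list, 52 stayed within 1.5 times in every alternative, and those that leaving out 1 array moved were the rises in triglyceride synthesis, neutrophil and proteasome genes and the falls in antigen presentation. The medians of 2 lists changed sign after quantile normalization. Within background, and where values recur, the signal limits what a difference can show. No paired analysis was possible because the labels give no replicate numbers, so no sample of one group belongs to one of another; the spike-in gap, which replicates 2 and 4 share, was a block instead, with 11864 calls becoming 12073.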
